A study of Homo sapiens with 16 samples.

Results

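Neural cells that had grown for 30 d with the O-GlcNAcase inhibitor Thiamet-G (TMG) were compared with solvent-treated neural cells of day 70, to measure how near the younger treated cells lay to the older state. The comparison holds 4 libraries of the 16 in the series, 2 labelled D30 TMG and 2 labelled D70 control, chosen by their labels alone, and the 2 D30 control libraries are shown for reference. H9 is an established line of human embryonic stem cells. The cells were taken to cortical neural fate by dual SMAD inhibition, in which LDN193189 blocks BMP signalling and SB431542 blocks TGF-β receptor kinases, in knockout serum replacement and N2 media up to D12 and in N2/B27 medium from then on. TMG at 40 µM was present from the undifferentiated stage on, and control cells of D30 and D70 received DMSO, the solvent. All libraries come from 1 line, and total RNA was sequenced in bulk after removal of ribosomal RNA. The study speaks of 2 biological replicates per group, but the labels do not say what a replicate is, so p-values measure the spread between these libraries. Day and drug differ together in this comparison and cannot be told apart in it. Groups follow the titles of the libraries. In 8 of the 16 libraries, 3 of them among the 6 shown here, the submitters' treatment field names the other arm than the title does (D30 control replicate 2, D30 TMG replicate 1 and D70 control replicate 2).

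O-GlcNAc is a single sugar that the enzyme OGT adds to serines and threonines of nuclear and cytoplasmic proteins and that the O-GlcNAcase OGA removes, so that a block of OGA leaves more of it on proteins. In the developing cortex, radial glia first divide and then make neurons in a set order, deep-layer neurons before upper-layer neurons and glia last. Proneural factors of the bHLH family, such as NEUROG1 and NEUROG2, start the neuronal programme, and NEUROD6 and TBR1 mark the excitatory neurons that follow. HOPX marks outer radial glia, a progenitor of later stages. Progenitors also keep time through factors such as LIN28A and LIN28B, which are high in young progenitors and decline with age.

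Library totals ran from 10334908 to 19836878 estimated counts over the 6 libraries shown. Levels are given as CPM after TMM scaling, that is estimated counts per 1000000 of each library's scaled total, in the order replicate 1 and replicate 2, and a log2 fold change above 0 means higher in D70 control than in D30 TMG. Of 19631 genes tested with edgeR's quasi-likelihood test, 0 (0%) passed a false discovery rate of 5% between D70 control and D30 TMG, the lowest adjusted p being 0.261. Where a gene below has a DESeq2 adjusted p alone, its edgeR adjusted p was thus at least 0.261. An unadjusted p under 0.05 was reached by 1010 genes (5.14%), of which 602 (3.07%) were higher in D70 control and 408 (2.08%) in D30 TMG. This share is near the 5% of genes that such a threshold passes on average when no gene differs. DESeq2 on the same 4 libraries called 192 genes (0.978%), 107 (0.545%) higher in D70 control and 85 (0.433%) in D30 TMG. The replicates of the groups did not overlap for 6636 genes (33.8%). The typical gene differed little, with a median size of the log2 fold change of 0.34, and a median log2 fold change over all genes of 0.06. As reference, D70 control against D30 control gave 1 gene (0.00489%) at the false discovery rate of 5% by edgeR, 3003 of 20468 genes (14.7%) at an unadjusted p under 0.05 and 1010 genes (4.93%) by DESeq2. D30 TMG against D30 control, which is the test of the difference between those comparisons, gave 0 genes by edgeR, 2405 of 19411 (12.4%) at an unadjusted p under 0.05 and 518 (2.67%) by DESeq2. These numbers moved when single libraries were left out. Without D70 control replicate 1 or replicate 2, edgeR called 63 or 116 genes between D70 control and D30 TMG and 4591 or 3890 between D70 control and D30 control. Without D30 TMG replicate 1 or replicate 2 it called 3789 or 497 between D30 TMG and D30 control, and 0 in both cases between D70 control and D30 TMG. Each of these fits assumes that the lone library varies like the pair it is set against. With all libraries in, the spread that edgeR fitted between replicates, as a coefficient of variation, was 0.446 for D70 control against D30 TMG. It was 0.391 for D70 control against D30 control and 0.295 for D30 TMG against D30 control. A lower share of genes at a threshold thus need not mean a smaller difference.

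Over all genes tested, the root mean square difference of log2 CPM between a D30 TMG library and a D70 control library was 1.04 on average, from 0.971 to 1.09 over 4 pairs. From D30 control to D70 control it was 1.11 (0.939 to 1.24), and from D30 control to D30 TMG 0.901 (0.664 to 1.19). The difference between the first of these averages and the second is smaller than the range of the pairs within either. The replicates of D70 control differed by 1.19 from each other, more than any D30 TMG library differed from a D70 control library, while the replicates of D30 TMG differed by 0.872 and those of D30 control by 0.593. Hence any distance to D70 control is one to a pair of libraries that lie apart. All distances use the genes that passed the filter on low counts over the libraries of D30 TMG and D70 control. Genes expressed in D30 control alone are thus left out.

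**Figure D1:**
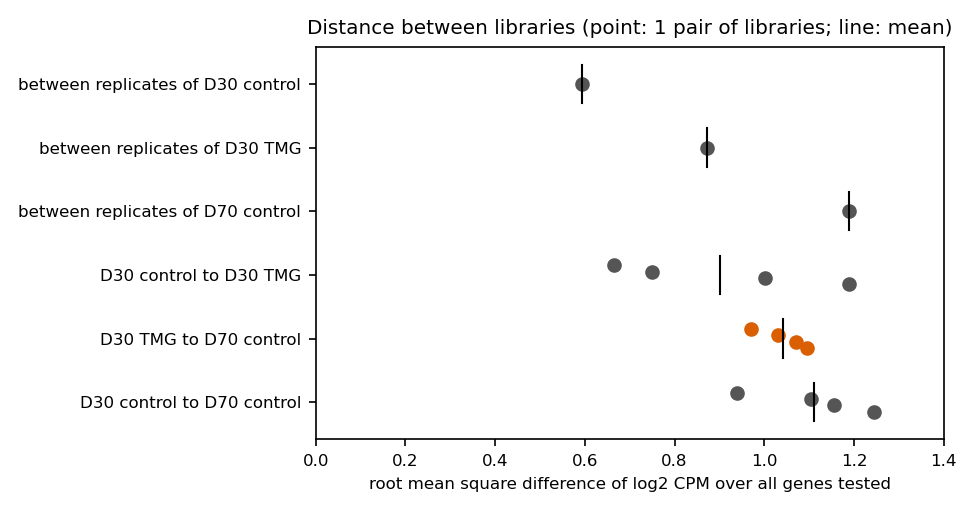
Root mean square difference of log2 CPM for each pair of libraries (points, x axis) and the mean of each kind of pair (lines). The D30 TMG to D70 control pairs (orange, 0.971 to 1.09) lie within the range of the D30 control to D70 control pairs (0.939 to 1.24), and the replicates of D70 control stand 1.19 apart.

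The libraries also differed in their make-up in ways that touch many of the results below. Mesenchymal genes, such as the collagen gene COL1A1, were high in D30 TMG replicate 2 and D70 control replicate 2. The summed CPM of the 10 mesenchymal genes was 9595 and 35479 in D30 TMG, 8114 and 47730 in D70 control, and 5363 and 8452 in D30 control. D70 control replicate 1 held the transcripts of choroid plexus, with a summed CPM of 10405 over 8 genes against 396 in replicate 2. D70 control replicate 2 held more of the pigment epithelium, with a summed CPM over 10 genes of 2489 against 506. In bulk RNA, fewer cells of a type and less RNA per cell cannot be told apart, and the part of this make-up in any single result was not tested.

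The markers of excitatory neurons and of outer radial glia were checked first. NEUROD6 (ENSG00000164600, chr7:31377079-31380340 on the minus strand of GRCh37), a bHLH factor of excitatory cortical neurons, was at 0.559 and 11.4 CPM in D30 TMG and at 8.41 and 1.16 CPM in D70 control. One library of each group was high and the other low, so that the groups overlapped, with log2 fold change -0.31, SE 1.51 (edgeR, adjusted p = 0.989). In D30 control it was at 0 and 0.0994 CPM, below both groups. The gene was not tested between D30 TMG and D30 control, as it was too low in all of these libraries but D30 TMG replicate 2. TBR1 (ENSG00000136535, chr2:162272808-162282381, plus strand), the T-box factor of deep-layer neurons, was at 11.0 and 29.2 CPM in D30 TMG and 47.8 and 3.70 CPM in D70 control, which again overlapped (log2 fold change 0.36, SE 1.18, edgeR adjusted p = 0.987). Its D30 control levels of 5.85 and 2.34 CPM lay below both D30 TMG libraries, but D70 control replicate 2 lay among them. HOPX (ENSG00000171476, chr4:57514155-57548043, minus strand) was at 1.86 and 1.01 CPM in D30 TMG and 3.14 and 4.55 CPM in D70 control. Here the D70 libraries were both higher, with log2 fold change 1.41, SE 0.60 and an adjusted p of 0.969 (edgeR). With 0.183 and 0.348 CPM in D30 control, the D30 TMG level lay between those of D30 control and D70 control, although all 6 values are low. The markers were thus present in D30 TMG and D70 control at low to moderate levels, and for NEUROD6 and TBR1 the direction between D30 TMG and D70 control turned when single libraries were left out.

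The promoter of NEUROD6 is shown because proneural bHLH factors bind E-boxes, and 4 of the 9 proneural genes found in the RefSeq promoter table hold the letters CAGATG in a window of 250 bases before to 50 after the start. These letters, read on both strands, occur in 14.7% of all 35116 windows of that length and in 17.5% of genes. The NEUROD6 window (RefSeq, GRCh38.p14, with a single exact match in GRCh37 at chr7:31380291-31380590, minus strand) holds 2 of them, at 115 and 42 bases before the start, in capitals:
NEUROD6: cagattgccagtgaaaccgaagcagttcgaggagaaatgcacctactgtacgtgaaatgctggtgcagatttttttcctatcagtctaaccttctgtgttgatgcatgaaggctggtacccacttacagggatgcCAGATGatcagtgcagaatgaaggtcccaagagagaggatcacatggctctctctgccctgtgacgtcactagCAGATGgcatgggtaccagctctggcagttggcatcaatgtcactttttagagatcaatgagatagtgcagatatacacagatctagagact
A match of letters is a description of the sequence and not a binding site.

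Of the proneural factors, NEUROG1 was higher in D30 TMG than in D70 control. Of the 11 genes of this list, 0 passed the false discovery rate by edgeR and 1 reached an unadjusted p under 0.05, NEUROG1, and their median log2 fold change was -0.31 beside 0.06 over all genes tested. At that p, 2.08% of all genes were lower in D70 control. Without D30 TMG replicate 2 the median turned to 0.84, and single libraries left out gave 0 to 2 higher and 1 to 4 lower genes. NEUROG1, which starts the neuronal programme, was at 8.01 and 22.6 CPM in D30 TMG, 2.38 and 2.08 CPM in D70 control and 0 and 3.68 CPM in D30 control. Both D30 TMG libraries stood above all others, with log2 fold change -2.77, SE 0.64 for D70 control over D30 TMG (edgeR adjusted p = 0.744, DESeq2 adjusted p = 0.00989). With edgeR or DESeq2 on all 16 libraries, 0 of the 11 proneural genes reached an unadjusted p under 0.05 in either direction. Of all 24249 genes in these fits, 1657 by edgeR and 1654 by DESeq2 were higher in D70 control, and 1135 and 1224 lower. NEUROG2, the relative of NEUROG1, was at 1.30 and 10.1 CPM in D30 TMG and 9.54 and 2.55 CPM in D70 control, with 1 high and 1 low library in each. NEUROD4 was at 6.61 and 19.0 CPM in D30 TMG and 1.13 and 61.2 CPM in D70 control, and INSM1, a zinc finger factor of newborn neurons, at 17.4 and 44.03 CPM and 10.9 and 25.9 CPM. The D70 libraries thus enclosed or overlapped the D30 TMG libraries for both. EOMES, the factor of intermediate progenitors, was at 2.61 and 5.58 CPM in D30 TMG and 10.5 and 2.62 CPM in D70 control. Against D30 control, 7 of the 10 proneural genes tested were higher in D30 TMG at an unadjusted p under 0.05 and 0 were lower, where 7.5% of all genes were higher and 4.89% lower. How far this count rests on single libraries was not tested.

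Among the 8 deep-layer genes, 0 reached an unadjusted p under 0.05 between D70 control and D30 TMG in either direction, and the median log2 fold change was -0.60. It turned to 1.29 without D30 TMG replicate 2. BCL11B, which specifies subcerebral neurons, was at 10.7 and 76.6 CPM in D30 TMG and 19.6 and 37.02 CPM in D70 control, and FOXP2 at 2.89 and 54.2 CPM and 5.58 and 35.9 CPM. For both genes replicate 2 was the higher library in each group, as it was for the mesenchymal genes. FEZF2, another factor of subcerebral neurons, was highest in the reference, with 44.6 and 83.0 CPM in D30 control, 25.3 and 12.2 CPM in D30 TMG and 20.3 and 17.2 CPM in D70 control, a log2 fold change of -0.002 between the last pair. Of the 11 upper-layer genes, CUX2 reached an unadjusted p under 0.05 (5.14% of all genes did), at 36.98 and 43.0 CPM in D30 TMG and 25.5 and 19.1 CPM in D70 control (log2 fold change -0.84, SE 0.31, adjusted p = 0.959 by edgeR). RORB was at 9.04 and 21.7 CPM in D30 TMG and 4.52 and 288 CPM in D70 control. In this list 0 genes reached it without either D30 TMG library, and 2 higher and 4 lower genes did without D70 control replicate 1. The high RORB value stood in D70 control replicate 2 alone.

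Of 15 genes shared by most neurons, 2 were lower in D70 control at an unadjusted p under 0.05 and 0 higher, beside 2.08% and 3.07% of all genes, with a median log2 fold change of -0.31 that turned to 0.44 without D30 TMG replicate 2. With each library left out in turn, 1 to 4 genes were lower and 0 to 1 higher. NEFM, a neurofilament subunit of axons, was at 37.1 and 69.2 CPM in D30 TMG, 10.4 and 11.5 CPM in D70 control and 8.78 and 22.2 CPM in D30 control. The D30 TMG libraries were the highest of the 6, with log2 fold change -2.28, SE 0.41 for D70 control over D30 TMG (adjusted p = 0.662 by edgeR and 0.00122 by DESeq2). TAGLN3, an actin-binding protein of neurons, followed the same order at 20.96 and 28.1 CPM in D30 TMG and 11.1 and 10.3 CPM in D70 control (log2 fold change -1.20, SE 0.33, edgeR adjusted p = 0.910). STMN2, a regulator of microtubules in growing axons, was at 31.8 and 62.7 CPM in D30 TMG and 44.9 and 42.3 CPM in D70 control, and MAPT, which encodes tau, at 33.5 and 69.1 CPM and 45.3 and 48.7 CPM. For these the D70 values lay inside the span of the D30 TMG values. TUBB3, neuronal β-tubulin, was at 112 and 181 CPM in D30 TMG and 210.1 and 151 CPM in D70 control, and NCAM1, an adhesion molecule, at 88.1 and 147 CPM and 170.4 and 216 CPM, the latter higher in both D70 libraries (log2 fold change 0.72, SE 0.36, edgeR adjusted p = 0.969).

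**Figure D2:**
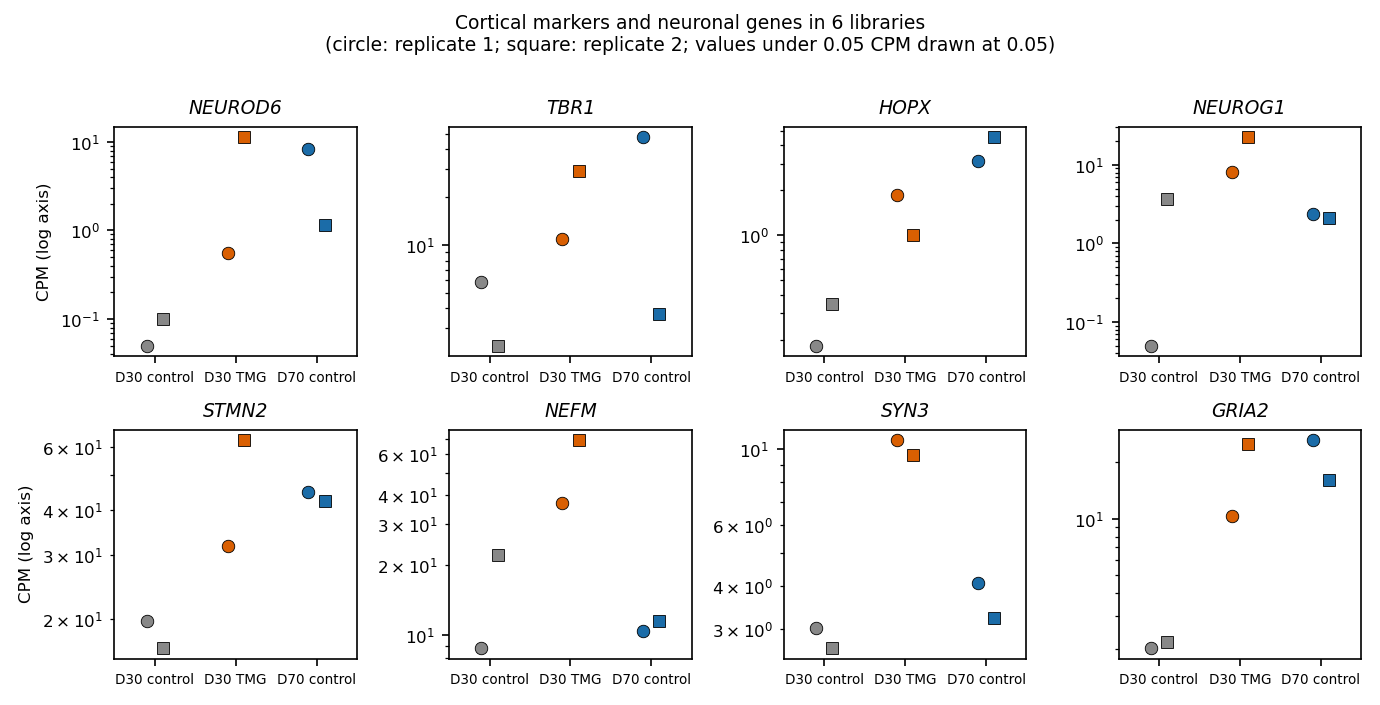
Levels (CPM, log axis) of the 3 markers and of 5 neuronal genes in each of the 6 libraries, with D30 control in grey, D30 TMG in orange and D70 control in blue. For NEUROD6, TBR1, STMN2 and GRIA2 the D30 TMG and D70 control libraries overlap, while both D30 TMG libraries lie above both D70 control libraries for NEUROG1, NEFM and SYN3 and below them for HOPX.

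For the 25 genes of synaptic vesicles, release and scaffolds the median log2 fold change was 0.11, and 4 genes were lower in D70 control at an unadjusted p under 0.05, with 0 higher, beside 2.08% and 3.07% of all genes. With each library left out in turn the median ran from -0.07 to 0.23, the number of lower genes from 0 to 5 and that of higher genes from 0 to 2. With edgeR or DESeq2 on all 16 libraries, 0 synaptic genes passed the false discovery rate. At an unadjusted p under 0.05, 1 and 2 were then lower in D70 control and 1 and 1 higher. Of all 24249 genes in these fits, 1135 and 1224 were lower and 1657 and 1654 higher. The vesicle protein gene SV2B was at 40.7 and 39.1 CPM in D30 TMG and 1.69 and 9.49 CPM in D70 control (log2 fold change -2.84, SE 0.84, adjusted p = 0.920 by edgeR and 0.0468 by DESeq2 on the 4 libraries), and its D30 control values were 7.87 and 5.86 CPM. SLC17A6, the glutamate transporter of vesicles that young neurons use, was at 7.27 and 12.9 CPM in D30 TMG and 4.27 and 2.24 CPM in D70 control, SYN3 at 10.6 and 9.61 CPM and 4.08 and 3.24 CPM, and the adhesion protein gene NLGN1 at 110.2 and 58.8 CPM and 37.9 and 24.1 CPM. All of these 4 were lower in both D70 libraries than in both D30 TMG libraries. The groups did not overlap, in either direction, for 11 of the 25 synaptic genes and for 33.8% of all genes.

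Receptor subunits for glutamate and GABA had a median log2 fold change of 0.20 over the 28 tested of 30, with 1 gene higher in D70 control at an unadjusted p under 0.05 and 0 lower, beside 3.07% and 2.08% of all genes. The median turned to -0.78 without D70 control replicate 1, with 2 genes higher and 5 lower, and without replicate 2 there were 5 higher and 0 lower. The gene that reached it was GABRG3, a GABA receptor subunit, at 1.40 and 1.37 CPM in D30 TMG and 4.58 and 3.55 CPM in D70 control (log2 fold change 1.55, SE 0.52, edgeR adjusted p = 0.923). GRIA2, the AMPA receptor subunit that limits calcium entry, was at 2.01 and 2.19 CPM in D30 control, 10.3 and 25.2 CPM in D30 TMG and 26.3 and 16.04 CPM in D70 control, where the last groups overlapped. GRM8 was at 10.9 and 53.6 CPM in D30 TMG and 175 and 9.10 CPM in D70 control, high in D70 control replicate 1 alone. GABRG1 was among the genes too low to be tested.

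Over 22 genes of voltage-gated channels the median log2 fold change was -0.13, with 1 gene higher and 1 lower in D70 control at an unadjusted p under 0.05, beside 3.07% and 2.08% of all genes. The median turned to 0.19 without D30 TMG replicate 2, and single libraries left out gave 0 to 2 higher and 0 to 4 lower genes. SCN3B, a sodium channel subunit, was at 31.2 and 31.1 CPM in D30 TMG and 32.6 and 29.8 CPM in D70 control, above 13.7 and 12.2 CPM in D30 control. SCN2A was at 6.15 and 12.4 CPM in D30 TMG and 15.7 and 6.02 CPM in D70 control, against 1.37 and 0.944 CPM in D30 control. The genes that reached that p both encode calcium channels. CACNA1A was at 37.8 and 104 CPM in D30 TMG and 22.8 and 18.1 CPM in D70 control (log2 fold change -1.79, SE 0.55, edgeR adjusted p = 0.920), and CACNA1D at 5.59 and 3.94 CPM and 10.5 and 13.8 CPM (log2 fold change 1.35, SE 0.44, edgeR adjusted p = 0.923). Between D30 TMG and D30 control, 15 of the 22 channel genes were higher in D30 TMG at an unadjusted p under 0.05 and 1 was lower, where 7.5% of all genes were higher and 4.89% lower. How far this count rests on single libraries was not tested. As the test found few differences among all genes, a gene without a call may still differ, and the SE of SCN3B, 0.27 on the log2 scale, is the kind of precision that 4 libraries gave for genes with replicates that lie close.

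The place of D30 TMG against the reference and D70 control was described gene by gene. Only genes that passed the filter on low counts over the 4 libraries of D30 TMG and D70 control were used. A gene expressed in D30 control alone was thus left out. Over all genes tested, the D30 TMG mean lay nearer to the D70 control mean than to the D30 control mean for 10137 of 19631 genes, or 51.6%. For voltage-gated channels it did so for 20 of 22 genes, for proneural factors for 11 of 11, for ventral forebrain and GABA genes for 7 of 7 and for deep-layer genes for 6 of 8. It did so for 19 of 28 receptor genes, 16 of 25 synaptic genes and 10 of 15 common neuronal genes. At the other end, it did so for 0 of 15 genes of glycolysis and low oxygen, 0 of 7 early timing factors, 1 of 8 genes of undifferentiated stem cells, 2 of 11 Polycomb genes and 2 of 12 astroglial genes. These counts carry no p-value, since genes are not replicates. They depend on single libraries. Without D30 TMG replicate 2 the count over all genes was 7553, the deep-layer count 3, the receptor count 10 and the synaptic count 10. With each of the 6 libraries left out in turn, the count of ventral forebrain and GABA genes ran from 2 (without D70 control replicate 2) to 6, that of receptor genes from 10 to 23, that of synaptic genes from 10 to 18 and that of common neuronal genes from 7 to 11. The proneural count ran from 8 to 11 and the channel count from 17 to 20. At the other end the counts ran from 0 to 2 for glycolysis, 0 to 2 for early timing, 1 to 4 for stem cell genes (4 without D30 control replicate 2), 2 to 4 for Polycomb genes and 2 to 5 for astroglial genes. Nearer to D70 control does not mean between the groups, since a mean beyond D70 control also counts. The D30 TMG mean lay between those of D30 control and D70 control for 8207 genes (41.8%). It did so for 4 of 11 proneural, 1 of 8 deep-layer, 8 of 22 channel and 1 of 7 ventral forebrain and GABA genes. For receptor genes this held for 18 of 28, for synaptic genes for 11 of 25 and for common neuronal genes for 5 of 15.

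**Figure D3:**
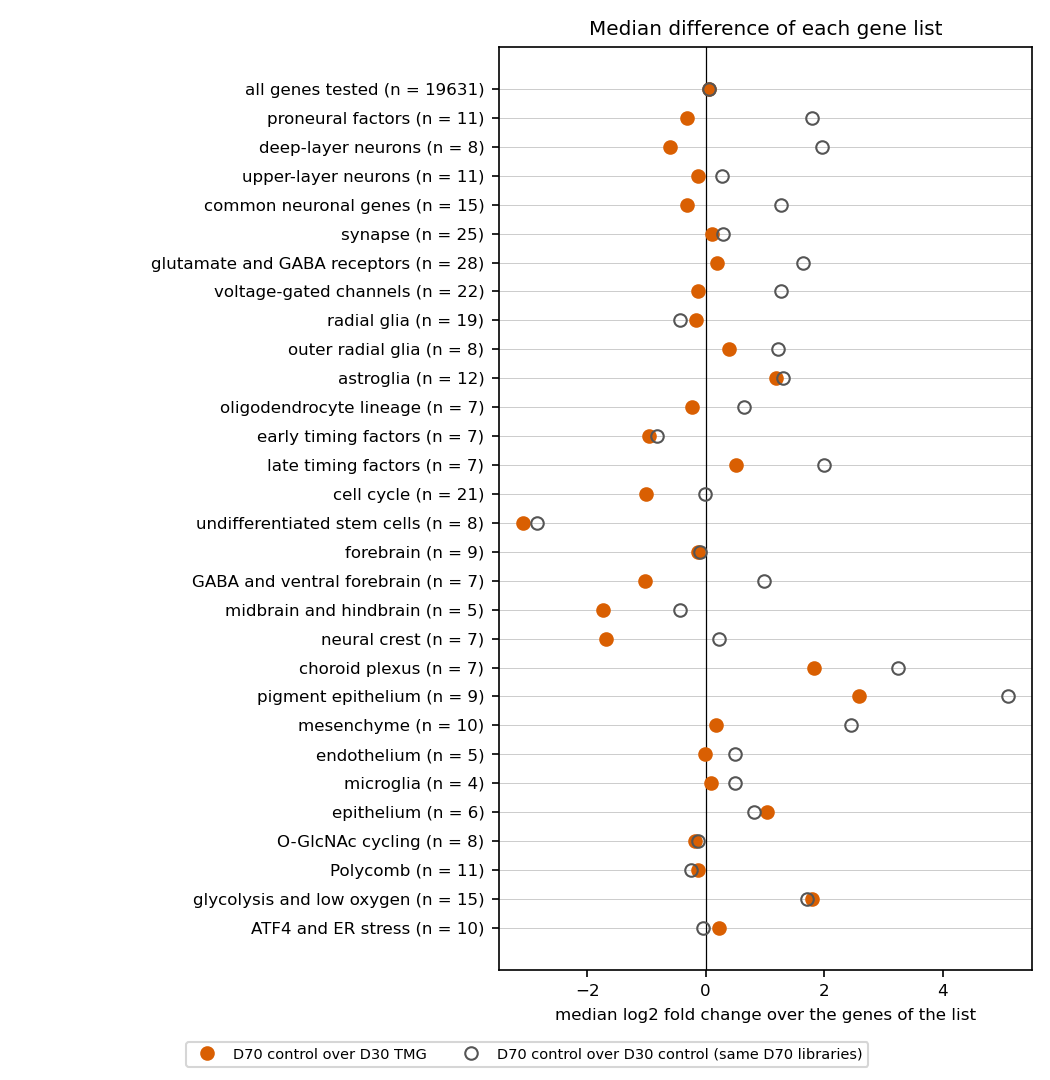
Median log2 fold change of each gene list (x axis) for D70 control over D30 TMG (filled) and, as reference, D70 control over D30 control (open), with the number of genes tested in brackets. Both use the same D70 libraries. The filled points of the 7 lists from proneural factors to voltage-gated channels lie between -0.60 and 0.20, that of ventral forebrain and GABA genes at -1.02 (0.45 without D30 TMG replicate 2 and 0.05 without a filter on low counts), those of stem cell, early timing and cell cycle genes at -0.95 or lower, and those of glycolysis, choroid plexus (-0.05 without D70 control replicate 1) and pigment epithelium at 1.80 or higher.

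Of 7 early timing factors, 4 were lower in D70 control at an unadjusted p under 0.05 and 0 higher, beside 2.08% and 3.07% of all genes, with a median log2 fold change of -0.95. Leaving out single libraries gave 2 to 4 lower genes. LIN28A, an RNA-binding protein that blocks let-7 miRNAs, was at 26.0 and 5.77 CPM in D30 TMG, 0.941 and 0.617 CPM in D70 control and 20.03 and 12.1 CPM in D30 control. The D30 control values lay inside the wider span of the D30 TMG values. Both D30 groups stood above D70 control, with log2 fold change -4.32, SE 0.92 for D70 control over D30 TMG (adjusted p = 0.709 by edgeR and 2.59e-04 by DESeq2). LIN28B was at 62.0 and 21.6 CPM in D30 TMG and 9.10 and 2.47 CPM in D70 control (log2 fold change -2.85, SE 0.85, DESeq2 adjusted p = 0.0331). The chromatin protein gene HMGA2 was at 120.1 and 274 CPM and 87.1 and 40.8 CPM, and IGF2BP1, which encodes an RNA-binding protein of young progenitors, at 237 and 236 CPM and 142 and 111 CPM. In D30 control IGF2BP1 was at 217 and 229 CPM, close to the D30 TMG values.

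Of the 7 late timing factors, 0 reached an unadjusted p under 0.05 (5.14% of all genes did), and the median log2 fold change was 0.52. Without D30 TMG replicate 2 the median was 1.35. NFIA, a factor of the switch to glia, was at 83.1 and 343 CPM in D30 TMG and 284 and 102 CPM in D70 control, and NFIX at 6.89 and 129.6 CPM and 76.8 and 168 CPM. The NFIX level of D30 TMG replicate 2 lay between the D70 libraries and that of replicate 1 far below them. NR2F1, an orphan receptor that patterns the cortex, was at 338 and 417 CPM in D30 control, 115 and 34.5 CPM in D30 TMG and 429 and 152 CPM in D70 control, so that D30 TMG was the lowest group (log2 fold change 1.96, SE 0.79 for D70 control over D30 TMG, edgeR adjusted p = 0.964).

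Genes of undifferentiated stem cells were lower in D70 control. Of 8 genes, 6 reached an unadjusted p under 0.05 in that direction and 0 in the other, 3 were called by DESeq2, and the median log2 fold change was -3.08. Over all genes, 2.08% were lower in D70 control at that p and 0.433% by DESeq2. Without D30 TMG replicate 1 the 6 genes became 2 and the median -1.78, and with each of the other libraries left out there were 3 to 6. POU5F1, the pluripotency factor OCT4, was at 8.76 and 5.31 CPM in D30 TMG, 0.314 and 0 CPM in D70 control and 0.0915 and 0.398 CPM in D30 control. The D30 TMG libraries were the highest of the 6 (log2 fold change -5.32, SE 1.16, adjusted p = 0.709 by edgeR and 1.82e-04 by DESeq2), and since POU5F1 has near-identical pseudogene copies, the split of its reads is uncertain. DPPA4 was at 22.4 and 11.0 CPM in D30 TMG, 1.00 and 0.309 CPM in D70 control and 28.6 and 15.4 CPM in D30 control, thus high on D30 with and without TMG (log2 fold change -4.62, SE 0.78, adjusted p = 0.650 by edgeR and 1.35e-06 by DESeq2). SALL4, a zinc finger factor, was at 36.98 and 11.99 CPM in D30 TMG and 2.32 and 5.71 CPM in D70 control, and DNMT3B, a DNA methyltransferase of early embryos, at 24.9 and 20.9 CPM and 5.90 and 13.4 CPM.

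Cell cycle genes had a median log2 fold change of -1.01 over 21 genes, 20 of them lower in D70 control, with 2 at an unadjusted p under 0.05 beside 2.08% of all genes. Leaving out single libraries gave 0 to 10 such genes and medians from -1.64 to -0.54, the most genes and the lowest median without D70 control replicate 1. MKI67, the proliferation marker, was at 74.7 and 200.5 CPM in D30 TMG, 66.2 and 38.6 CPM in D70 control and 48.9 and 56.1 CPM in D30 control (log2 fold change -1.39, SE 0.58, edgeR adjusted p = 0.969). TOP2A, the topoisomerase of dividing cells, was at 137 and 226 CPM in D30 TMG and 92.3 and 42.7 CPM in D70 control (log2 fold change -1.42, SE 0.49, edgeR adjusted p = 0.955), and the mitotic kinase gene AURKA at 12.5 and 17.5 CPM and 7.97 and 6.56 CPM. D30 TMG replicate 2 was the highest of the 6 libraries for MKI67, TOP2A and AURKA, and it also held the higher mesenchymal sum of its group.

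Over 19 radial glial genes the median log2 fold change was -0.16, with 1 gene at an unadjusted p under 0.05 in each direction, beside 3.07% of all genes higher and 2.08% lower. The median turned to 0.07 without D30 TMG replicate 2, and single libraries left out gave 0 to 2 higher and 0 to 3 lower genes. PAX6, the factor of cortical radial glia, was at 428 and 238 CPM in D30 TMG and 299 and 299 CPM in D70 control, and SOX2 at 66.4 and 36.7 CPM and 109 and 48.6 CPM. SOX3 was lower in D70 control at 58.2 and 20.6 against 13.1 and 7.25 CPM (log2 fold change -1.95, SE 0.63, edgeR adjusted p = 0.923), and LHX2, a selector of cortical identity, was higher at 1.30 and 4.30 against 11.0 and 13.2 CPM (log2 fold change 2.11, SE 0.68, edgeR adjusted p = 0.920). Neither gene overlapped between the groups, as 33.8% of all genes did not. Of the 8 outer radial glial genes, 1 was higher in D70 control at an unadjusted p under 0.05 and 0 lower, beside 3.07% and 2.08% of all genes. Their median log2 fold change was 0.40, with 5 genes above 0, and it ran from -0.03 (without D70 control replicate 2) to 0.86 with single libraries left out. The gene that reached that p, FAM107A, was at 6.43 and 6.50 CPM in D30 TMG and 104 and 16.5 CPM in D70 control (log2 fold change 3.22, SE 0.93, DESeq2 adjusted p = 0.0187), and most of its excess stood in D70 control replicate 1. With DESeq2 on all 16 libraries, 0 of the 8 outer radial glial genes passed the false discovery rate. TNC, a matrix protein, was at 185 and 405 CPM and 272 and 531 CPM, and LIFR, a cytokine receptor, at 68.4 and 179.5 CPM and 41.7 and 68.2 CPM (log2 fold change -1.17, SE 0.56, edgeR adjusted p = 0.969).

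Astroglial genes leaned towards D70 control, with 10 of 12 higher there, a median log2 fold change of 1.19 and, at an unadjusted p under 0.05, 2 higher and 1 lower, beside 3.07% and 2.08% of all genes. Single libraries left out gave 1 to 4 higher and 0 to 2 lower genes, and the median was 0.35 without D70 control replicate 1. CD44, an adhesion receptor of astroglial precursors and also of mesenchymal cells, was at 3.38 and 4.82 CPM in D30 control, 11.1 and 25.4 CPM in D30 TMG and 65.7 and 106 CPM in D70 control (log2 fold change 2.24, SE 0.52, adjusted p = 0.776 by edgeR and 0.0223 by DESeq2). The order of the groups was strict in all 6 libraries. ALDOC, the aldolase of astrocytes, was at 10.8 and 4.58 CPM in D30 TMG and 19.6 and 44.9 CPM in D70 control, and APOE, the lipid carrier, went the other way at 102 and 105 CPM and 61.0 and 52.5 CPM. GFAP, the filament that defines mature astrocytes, was at 1.58 and 1.46 CPM in D30 TMG and 3.07 and 3.86 CPM in D70 control, thus low in both groups and higher in both D70 libraries. Of the 7 oligodendrocyte lineage genes tested, 1 was higher in D70 control at an unadjusted p under 0.05 and 0 lower, beside 3.07% and 2.08% of all genes. Only 2 had a log2 fold change above 0, and the median was -0.24 (-0.79 to 0.40 with single libraries left out). The gene that reached that p, MBP, a myelin protein gene, was at 4.66 and 5.03 CPM and 18.0 and 17.7 CPM (log2 fold change 1.88, SE 0.36, DESeq2 adjusted p = 0.0121). SOX10, a factor of the lineage and of neural crest, was at 6.24 and 15.4 CPM in D30 TMG and 2.70 and 5.94 CPM in D70 control (log2 fold change -1.33, SE 0.68, edgeR adjusted p = 0.969). OLIG2, MAG and MOG, 3 defining markers of that lineage, were at 0 or below 0.1 CPM in all 6 libraries and were not tested.

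Genes of glycolysis and the response to low oxygen set D30 TMG and D70 control apart. Of 15 genes, 12 were higher in D70 control at an unadjusted p under 0.05 and 0 lower, beside 3.07% of all genes in that direction. DESeq2 called 8 of the 15 higher at a false discovery rate of 5%, beside 0.545% of all genes, and the median log2 fold change was 1.80. With each of the 4 libraries left out in turn, 9 to 13 genes were higher at an unadjusted p under 0.05 and the median was between 1.68 and 2.03. SLC2A1, the glucose transporter GLUT1, was at 104 and 47.6 CPM in D30 TMG, 721 and 954 CPM in D70 control and 100.3 and 88.4 CPM in D30 control. Both D70 libraries stood far above all D30 libraries (log2 fold change 3.46, SE 0.51, adjusted p = 0.602 by edgeR and 2.93e-07 by DESeq2). HK2, the hexokinase that traps glucose in the cell, was at 31.6 and 31.0 CPM in D30 TMG and 120.4 and 213 CPM in D70 control (log2 fold change 2.41, SE 0.38, DESeq2 adjusted p = 2.59e-04). Further down the pathway PGK1 was at 149.8 and 116 CPM and 421 and 524 CPM, ENO1 at 261 and 283 CPM and 853 and 998 CPM, and ALDOA at 213 and 203 CPM and 697 and 723 CPM. LDHA, which makes lactate, was at 42.1 and 76.2 CPM in D30 TMG and 114 and 298 CPM in D70 control, and PDK1, which holds pyruvate back from the mitochondria, at 39.8 and 28.3 CPM and 56.3 and 192 CPM. None of these genes overlapped between the groups, as held for 12 of the 15 genes and for 33.8% of all genes.

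Textbook targets of the hypoxia-inducible factor on the same list were also higher in D70 control. BNIP3, a mitophagy receptor, was at 19.5 and 15.7 CPM in D30 TMG and 90.7 and 136 CPM in D70 control (log2 fold change 2.68, SE 0.35, DESeq2 adjusted p = 3.78e-06), and VEGFA, the vascular growth factor, at 103 and 132 CPM and 262 and 466 CPM (log2 fold change 1.63, SE 0.40, edgeR adjusted p = 0.786). CA9, a carbonic anhydrase that is barely made when oxygen is ample, was at 0.186 and 0 CPM in D30 TMG and 5.83 and 8.95 CPM in D70 control, a ratio of 78.3-fold (95% counting interval 21.4 to 651, from 209 and 2 counts). The exceptions were ADM, at 10.9 and 14.4 CPM and 7.46 and 17.3 CPM, SLC2A3, at 249.8 and 73.0 CPM and 153 and 204 CPM, and PFKFB3, at 38.8 and 70.3 CPM and 58.2 and 151 CPM, which overlapped between the groups. In D30 TMG against D30 control 0 of 14 genes of this list were higher and 3 lower at an unadjusted p under 0.05, beside 7.5% and 4.89% of all genes. How far these counts rest on single libraries was not tested.

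The promoters of CA9, PGK1 and BNIP3 are shown since they are textbook targets of the hypoxia-inducible factor, whose response element has the core ACGTG. Capitals mark this core or its complement on either strand in the window of 250 bases before to 50 after the start, from RefSeq (GRCh38.p14) with single exact matches in GRCh37 at chr9:35673675-35673974 (plus strand), chrX:77359495-77359794 (plus strand) and chr10:133795378-133795677 (minus strand). The window of CA9 holds 1 core, that of PGK1 3, and that of BNIP3 2 that overlap as a palindrome:
CA9: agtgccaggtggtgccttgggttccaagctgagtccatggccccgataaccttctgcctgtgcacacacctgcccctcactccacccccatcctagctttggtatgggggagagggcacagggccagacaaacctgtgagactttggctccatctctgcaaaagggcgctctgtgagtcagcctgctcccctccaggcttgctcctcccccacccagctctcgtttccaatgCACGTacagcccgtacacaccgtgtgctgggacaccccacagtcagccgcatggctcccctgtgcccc
PGK1: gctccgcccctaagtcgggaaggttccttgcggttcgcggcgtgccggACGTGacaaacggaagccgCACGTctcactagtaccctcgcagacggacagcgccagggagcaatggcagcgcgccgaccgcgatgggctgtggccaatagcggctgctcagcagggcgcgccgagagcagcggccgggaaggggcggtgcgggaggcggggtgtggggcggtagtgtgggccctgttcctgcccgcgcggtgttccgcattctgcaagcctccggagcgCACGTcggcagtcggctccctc
BNIP3: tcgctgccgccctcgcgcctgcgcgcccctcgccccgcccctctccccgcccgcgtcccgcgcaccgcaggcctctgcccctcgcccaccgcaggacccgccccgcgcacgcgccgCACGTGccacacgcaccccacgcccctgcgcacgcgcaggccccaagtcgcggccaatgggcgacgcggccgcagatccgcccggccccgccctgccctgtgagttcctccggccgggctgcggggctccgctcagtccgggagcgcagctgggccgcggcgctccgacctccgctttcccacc
Of the 13 genes of the list with a promoter there, 9 hold the core, and of all 27305 genes 24.9% do, or 21.4% of 35116 windows. The list was chosen with known targets among it, so this share describes the windows and no more.

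**Figure D4:**
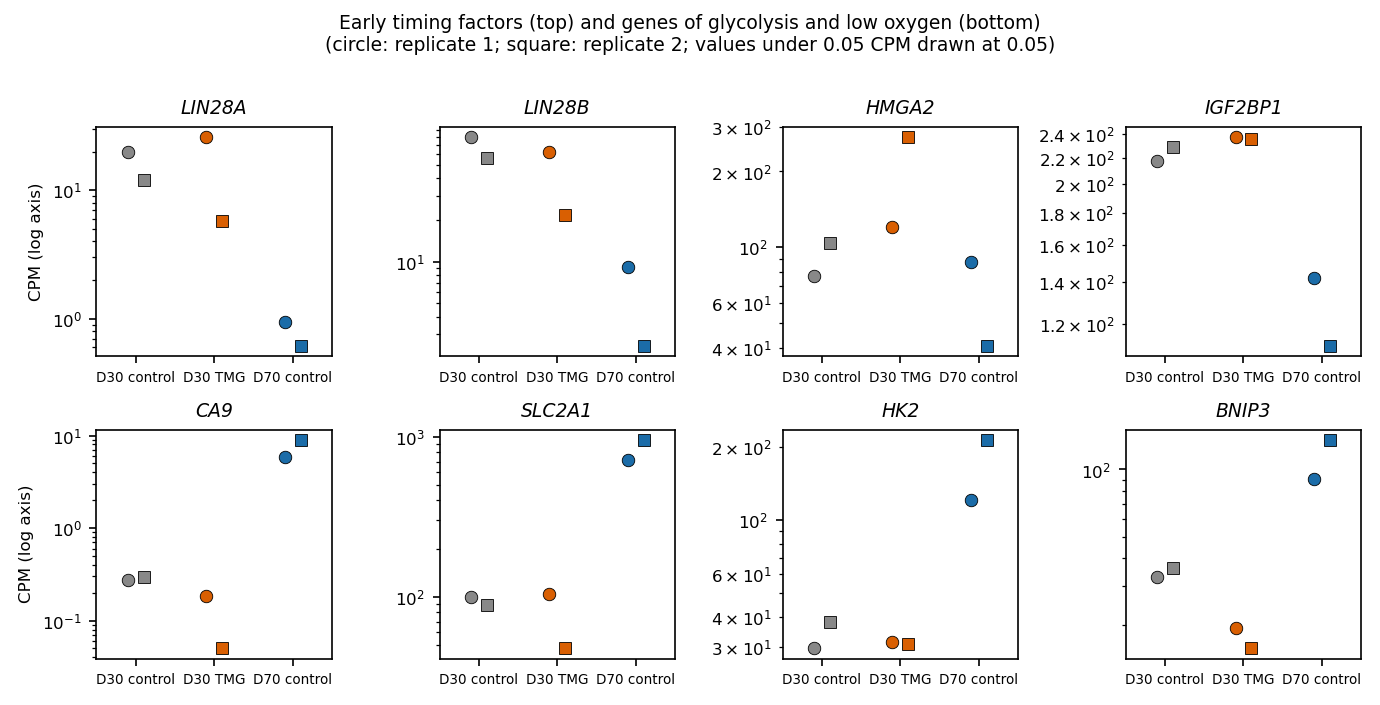
Levels (CPM, log axis) of 4 early timing factors and 4 genes of glycolysis and low oxygen in the 6 libraries, with D30 control in grey, D30 TMG in orange and D70 control in blue. In every panel the D30 TMG libraries do not overlap the D70 control libraries; the timing factors are lower and the lower row is higher in D70 control.

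The enzymes of O-GlcNAc cycling were measured too. OGT was at 422 and 410.1 CPM in D30 control, 573 and 696 CPM in D30 TMG and 489 and 438 CPM in D70 control (log2 fold change -0.45, SE 0.31, edgeR adjusted p = 0.970), and OGA at 389 and 399, 481 and 379.9 and 289 and 301 CPM (log2 fold change -0.55, SE 0.30, edgeR adjusted p = 0.969). Both D30 TMG libraries were above both D70 libraries for each enzyme. TMG acts on the OGA protein, so that transcript levels do not check the treatment. Of 8 genes of O-GlcNAc cycling and the hexosamine pathway, 0 reached an unadjusted p under 0.05, where 5.14% of all genes did.

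Of 11 Polycomb genes, CBX2 did so (5.14% of all genes did, and 0 to 1 Polycomb genes with a library left out), a reader subunit of Polycomb complex 1, at 43.5 and 68.8 CPM in D30 TMG, 17.7 and 23.8 CPM in D70 control and 39.2 and 50.7 CPM in D30 control (log2 fold change -1.44, SE 0.36, edgeR adjusted p = 0.826). EZH2, the methyltransferase of Polycomb complex 2, was at 41.1 and 47.1 CPM in D30 TMG and 28.9 and 29.6 CPM in D70 control (log2 fold change -0.59, SE 0.27, edgeR adjusted p = 0.969), and its partner JARID2 at 72.1 and 75.1 CPM and 47.6 and 47.3 CPM. Both were lower in both D70 libraries, and the D30 TMG values of each lay near those of D30 control, 34.7 and 40.2 CPM and 71.1 and 80.3 CPM. SUZ12 was at 63.6 and 54.6 CPM and 53.9 and 54.2 CPM. Over all genes, 3.07% were higher in D70 control at an unadjusted p under 0.05. Of 10 genes of the ATF4 and unfolded protein response, DDIT4, which responds to stress and to low oxygen and restrains mTOR, was higher in D70 control at an unadjusted p under 0.05 (0 to 3 genes with a library left out), at 49.1 and 60.6 CPM in D30 TMG and 99.0 and 253 CPM in D70 control (log2 fold change 1.68, SE 0.51, edgeR adjusted p = 0.920).

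Of 9 genes of forebrain identity, 2 were higher and 1 lower in D70 control at an unadjusted p under 0.05. Among 5 midbrain and hindbrain genes tested, 1 was higher and 1 lower, beside 3.07% and 2.08% of all genes. The median log2 fold change of the forebrain genes was -0.13 (-1.17 to 0.66 with single libraries left out). That of the midbrain and hindbrain genes was -1.73 and turned to 2.08 without D30 TMG replicate 2. OTX1, a factor of forebrain and midbrain progenitors, was at 94.0 and 84.2 CPM in D30 TMG and 30.9 and 14.0 CPM in D70 control (log2 fold change -1.99, SE 0.45, adjusted p = 0.732 by edgeR and 0.0134 by DESeq2). With DESeq2 on all 16 libraries, 0 of the 9 forebrain genes passed the false discovery rate. SIX3, a factor of the anterior forebrain and eye, was at 39.2 and 47.4 CPM in D30 control, 19.5 and 4.30 CPM in D30 TMG and 82.3 and 46.6 CPM in D70 control, thus lowest in D30 TMG. The hindbrain gene HOXB2 was at 0.186 and 0 CPM in D30 TMG and 3.89 and 2.55 CPM in D70 control, a ratio of 35.6-fold (95% counting interval 9.59 to 298, from 95 and 2 counts), and LMX1B, a factor of the midbrain and dorsal midline, at 30.3 and 116 CPM and 2.89 and 14.4 CPM (log2 fold change -3.09, SE 1.04, edgeR adjusted p = 0.940). Of the 7 genes of ventral forebrain and GABA neurons tested, 5 had a log2 fold change below 0, with a median of -1.02 (0.45 without D30 TMG replicate 2). At an unadjusted p under 0.05, 1 was lower in D70 control and 0 higher, beside 2.08% and 3.07% of all genes. That gene, CALB2, the calcium-binding protein calretinin of some interneurons, was at 2.79 and 7.41 CPM in D30 TMG and 1.57 and 1.31 CPM in D70 control (log2 fold change -1.82, SE 0.67, edgeR adjusted p = 0.959). GAD1, which makes GABA, was at 10.2 and 7.87 CPM in D30 TMG and 21.9 and 6.02 CPM in D70 control. GAD2, LHX6, NKX2-1 and DLX6 were too low to be tested.

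Of 7 genes of neural crest and dorsal midline, 3 were lower in D70 control at an unadjusted p under 0.05 and 0 higher, beside 2.08% of all genes lower, with a median log2 fold change of -1.67. With each library left out in turn, 1 (without D30 TMG replicate 2) to 7 (without D70 control replicate 2) were lower and the median ran from -3.51 to -0.53. PAX3 (ENSG00000135903, chr2:223064606-223163717, GRCh37), a factor of the dorsal neural tube and neural crest, was at 168 and 154 CPM in D30 TMG, 5.71 and 9.49 CPM in D70 control and 47.1 and 78.8 CPM in D30 control. Its 6 libraries fell into 3 levels without overlap (log2 fold change -4.41, SE 0.39 for D70 control over D30 TMG, adjusted p = 0.261 by edgeR and 3.92e-18 by DESeq2), and D30 TMG lay on the far side of D30 control from D70 control. MSX1, a BMP-responsive factor of the dorsal midline, was at 53.3 and 107 CPM in D30 TMG and 32.9 and 17.3 CPM in D70 control (log2 fold change -1.67, SE 0.51, edgeR adjusted p = 0.920), and PAX7 at 9.97 and 4.12 CPM and 0.125 and 1.23 CPM.

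Among other cell types, genes of the pigment epithelium were higher in D70 control. Of 9 pigment epithelium genes tested, all had a log2 fold change above 0, 5 of them at an unadjusted p under 0.05 beside 3.07% of all genes, and the median log2 fold change was 2.58. With each library left out in turn, 1 (without D30 TMG replicate 2) to 8 (without D70 control replicate 1) were higher, and the median ran from 1.11 (without D70 control replicate 2) to 3.36. DCT, a melanin enzyme, was at 41.9 and 20.7 CPM in D30 TMG and 67.1 and 1032 CPM in D70 control, TYRP1, another, at 3.17 and 3.11 CPM and 37.1 and 309.8 CPM, and RAX, the eye field factor, at 1.21 and 2.38 CPM and 7.72 and 91.9 CPM. Replicate 2 was the higher D70 library for all of them. In choroid plexus, TTR, which encodes transthyretin and defines this tissue, was at 136 and 255 CPM in D30 TMG and 9574 and 189 CPM in D70 control, so that its excess stood in replicate 1 alone. AQP1, a water channel, was higher in both D70 libraries at 13.6 and 22.0 against 181 and 132 CPM (log2 fold change 3.13, SE 0.39, adjusted p = 0.602 by edgeR and 2.01e-08 by DESeq2). COL1A1 was at 2371 and 9493 CPM in D30 TMG and 2345 and 19519 CPM in D70 control, and the fibroblast proteoglycan gene DCN at 22.0 and 369 CPM and 13.9 and 472 CPM, each high in replicate 2 of both groups. Of 10 mesenchymal genes, 0 reached an unadjusted p under 0.05, where 5.14% of all genes did. Among epithelial genes, KRT5, a basal keratin, was at 2.42 and 0.915 CPM and 1.44 and 363 CPM. The summed CPM of the endothelial genes was 33.4 and 49.5 in D30 TMG and 11.5 and 83.8 in D70 control, and that of the microglial genes 13.8 and 14.5 and 25.97 and 15.9. Of the 5 and 4 genes tested, 0 and 0 reached an unadjusted p under 0.05, where 5.14% of all genes did. Of their defining markers, VWF was at 1.02 and 0.915 CPM in D30 TMG and 1.25 and 1.16 CPM in D70 control, and P2RY12 at 1.21 and 0.641 CPM and 0.815 and 0.926 CPM.

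**Figure D5:**
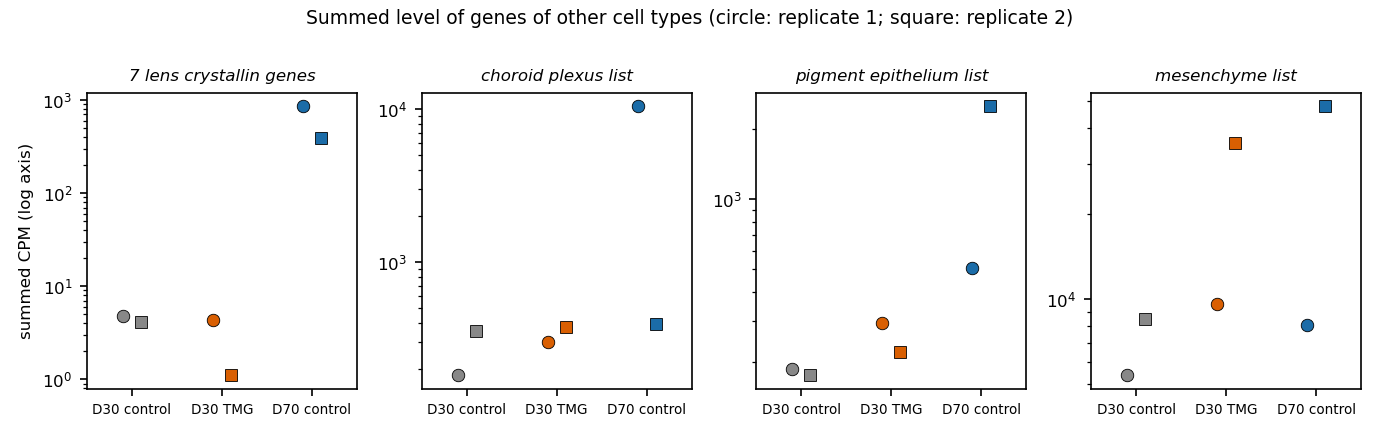
Summed CPM (log axis) of 7 lens crystallin genes and of the lists of choroid plexus, pigment epithelium and mesenchyme in each library, with D30 control in grey, D30 TMG in orange and D70 control in blue. The crystallin sum is 4.38 and 1.10 in D30 TMG and 851 and 389 in D70 control, while the choroid plexus excess stands in 1 D70 library and mesenchyme is high in replicate 2 of D30 TMG and D70 control.

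The genes with the largest fold changes were then listed, 12 in each direction among named genes with at least 5 CPM in the higher group and no overlap. As none passed the false discovery rate by edgeR, they were taken at an unadjusted p under 0.05, where 448 genes qualified as higher in D70 control and 259 as higher in D30 TMG. Among the 12 that were higher in D70 control, 7 were crystallins, the structural proteins of the eye lens. CRYBA4 was at 0 in both libraries in D30 TMG and at 40.0 and 43.5 CPM in D70 control, at least 301-fold higher over a floor of 3 counts for the group. CRYBB2 was likewise at 0 in both libraries in D30 TMG and at 14.1 and 20.5 CPM in D70 control, at least 125-fold higher. CRYBA1 (ENSG00000108255, chr17:27573877-27581512, GRCh37) was at 0.932 and 0.366 CPM in D30 TMG and 56.3 and 52.2 CPM in D70 control (log2 fold change 6.37, SE 0.54, adjusted p = 0.261 by edgeR and 4.27e-21 by DESeq2), and it was the 1 gene that passed in D70 control against D30 control, where edgeR's adjusted p was 0.0493. CRYBB1, at 0 and 0.183 and 70.3 and 70.2 CPM, had a ratio of 761-fold (95% counting interval 210.3 to 6284, from 2030 and 2 counts). CRYAA was at 3.26 and 0.458 CPM in D30 TMG and 657 and 187 CPM in D70 control. The other 5 were CA9, the melanocyte channel gene TRPM1, at 0.373 and 1.28 and 6.84 and 156 CPM, the ferroxidase gene CP, at 11.2 and 7.51 and 1192 and 37.3 CPM, and the homeobox genes HOXB3, at 0.186 and 0 and 7.72 and 7.64 CPM, and HOXB4, at 0.186 and 0 and 4.52 and 6.79 CPM, whose ratios were 83.2-fold (95% counting interval 22.8 to 691, from 222 and 2 counts) and 59.9-fold (95% counting interval 16.3 to 499, from 160 and 2 counts).

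The 12 genes with the largest excess in D30 TMG included transcription factors and signalling genes. BSX, a homeobox factor of the hypothalamus and pineal, was at 5.03 and 9.79 CPM in D30 TMG, 0 and 0.0771 CPM in D70 control and 0.0915 and 1.54 CPM in D30 control, a ratio to D70 control of 215-fold (95% counting interval 38.0 to 8539, from 161 and 1 counts). BARHL1, a homeobox factor of diencephalon and hindbrain, was at 13.6 and 18.6 CPM in D30 TMG, 0.502 and 0.309 CPM in D70 control and 5.76 and 7.06 CPM in D30 control (log2 fold change -5.26, SE 0.56, adjusted p = 0.472 by edgeR and 2.28e-11 by DESeq2). WNT1, a ligand of the dorsal midline and midbrain, was at 8.57 and 17.2, 1.07 and 0 and 2.10 and 5.07 CPM in the same order, and CCDC140, a non-coding gene that overlaps PAX3 on the other strand, at 7.73 and 9.15, 0.376 and 0.154 and 1.28 and 3.03 CPM. For all 4 the D30 TMG libraries were the highest of the 6 and the D70 control libraries were at most at 1.07 CPM. GLRA1, a glycine receptor subunit, was at 1.86 and 10.4 CPM in D30 TMG and 0.0627 and 0.231 CPM in D70 control, and OTOG at 2.79 and 34.5 and 0.125 and 0.617 CPM, the latter high in D30 TMG replicate 2. The zinc transporter gene SLC30A8 was at 20.9 and 7.14 CPM and 0.188 and 0.309 CPM. POU5F1 and DPPA4, given above, were also among the 12, along with the non-coding genes LINC02735, at 14.5 and 8.79 and 0 and 0.154 CPM, LINC02380, at 9.87 and 5.13 and 0.627 and 0 CPM, and TUBA1B-AS1, at 19.7 and 8.15 and 0.376 and 0.231 CPM. The counting is not stated to use strand. Reads from the stretch that CCDC140 and PAX3 share thus cannot be told apart. The same holds for stretches that TUBA1B-AS1 shares with the genes it overlaps.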

How the data were processed

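RNA of H9 cells was sequenced by the authors, aligned with Bowtie2 to hg19 and summarised by RSEM (v1.2.12) for Ensembl genes of GRCh37.p13. They deposited the estimated counts (expected counts) per gene as whole numbers, without normalization, and these entered the tests as they stand. How the kit treats strand is not stated. The totals of the 6 libraries used here ran from 10334908 to 19836878. Genes without a name took between 4.57% and 5.84% of the counts of a library and were tested but not named.

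Libraries were grouped by their titles. Counts of the 4 libraries of a comparison were fitted with edgeR 4.0.16 (TMM factors over the 6 libraries, filterByExpr with a minimum count of 10 and total of 15, robust quasi-likelihood fit and test, 2 residual degrees of freedom), and p-values were adjusted by Benjamini-Hochberg over all genes tested. Each standard error is the fold change on the log2 scale divided by the root of F. Only the libraries compared were fitted, because replicates of D70 are far apart. Distances and positions used log2 CPM with a prior count of 2 and carry no p-value. Ratios of genes with 1 to 3 counts in the lower group have exact (Clopper-Pearson) 95% intervals, which, like the floor of 3 counts for a group at 0, cover counting error only. Alternatives were other size factors, DESeq2 1.42.0, fits of all 16 libraries, no filter, a replicate block and each library left out. The fit of a comparison, by edgeR and by DESeq2, was tested on simulated counts.

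The 29 gene lists hold 340 distinct genes. The lists, the markers and the rule for named genes were chosen with earlier results of these data known. Named were the markers, genes of the lists, and the 12 genes with the largest fold change in each direction among named genes past the false discovery rate of 5%, with at least 5 CPM in the higher group and no overlap between replicates, filled by unadjusted p under 0.05 where fewer passed. R 4.3.3 and Python 3.11.15 were used. Gene positions are of GRCh37, and promoters are of RefSeq (GRCh38.p14). Values of some genes of the lists are not reported here.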

Additional observations from a re-analysis of the deposited data

Results flagged for a closer look

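The lens crystallins, a set put together after their values were seen, also gave a signal in libraries that no comparison above uses. Scaled over all 16 libraries, the summed CPM of 7 crystallin genes was 1385 in D70 TMG replicate 1 and 0.739 in D70 TMG replicate 2, where the highest control library before D70 had 4.89. The same sum was 884 and 404 in D70 control and 4.51 and 1.14 in D30 TMG. The D70 TMG libraries also differed in other genes, with KRT5 at 2.43 CPM in replicate 1 and 2173 CPM in replicate 2.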

How the results depend on the processing

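Of 1240 fold changes of 124 named genes under other settings, 1186 kept their direction, and the 54 that did not belong to 30 genes. For D70 control against D30 TMG, the number of genes past the false discovery rate of 5% was 0 with edgeR and with other (RLE) size factors, 192 with DESeq2, 7 with edgeR on 16 libraries, 44 without a filter, 496 with DESeq2 on 16 libraries (an alternative chosen after seeing the data), and 0 to 116 with each library left out. At an unadjusted p under 0.05 there were 1010 genes, with 2792, 1600 and 2878 for edgeR on 16 libraries, no filter and DESeq2 on 16 libraries, and 496 to 2336 with each library left out. For D70 control against D30 control, 1 gene became 1010, 88, 851 and 1717 with DESeq2, edgeR on 16 libraries, no filter and DESeq2 on 16 libraries, and 0 to 4591 with each library left out, and 3003 genes at an unadjusted p under 0.05 became 4768 with DESeq2 on 16 libraries and 709 to 6540. For D30 TMG against D30 control, 0 became 518, 799 and 597 with DESeq2, no filter and DESeq2 on 16 libraries, and 0 to 3789, and 2405 at an unadjusted p under 0.05 became 3950 without a filter and 866 to 6019. The mean distance from D30 TMG to D70 control, 1.04, was 1.14 with a prior count of 0.5 and 0.921 over genes of at least 5 CPM. The causes were not tested.

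The replicate numbers are shared by the groups with no statement that they pair cultures, and the differences between replicates correlated at 0.166 (D30 TMG and D70 control), -0.0812 (D30 control and D70 control) and 0.278 (D30 TMG and D30 control) across genes. A replicate block in edgeR gave 1, 0 and 144 genes past the threshold in the 3 comparisons, in the order above.

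The log2 fold changes of these 124 genes that turned were as follows. In the blocked fit NEUROD6 was 0.14, TBR1 -0.38, DCN -0.14, FEZF2 0.0842, FOXP2 0.13, NEUROD4 -0.25, NFIA 0.0118 and SCN3B -0.0014. SCN3B was also -0.02 with RLE factors, -0.0445 with DESeq2 and -0.0151 with DESeq2 on 16 libraries, and FEZF2 was 0.0078 with edgeR on 16 libraries. With each library left out in turn, the values ran from -2.36 to 3.09 for NEUROD6, -2.44 to 1.26 for TBR1, -1.17 to 2.21 for NEUROG2, -0.52 to 0.46 for STMN2, -0.0725 to 0.0749 for SCN3B, -0.0874 to 4.15 for NFIX, -0.05 to 5.63 for TTR, -0.20 to 7.75 for KRT5, -1.33 to 2.20 for COL1A1 and -0.75 to 0.44 for ADM. They ran from -1.44 to 1.40 for BCL11B, -3.80 to 3.46 for DCN, -0.65 to 1.36 for EOMES, -0.43 to 0.62 for FEZF2, -2.34 to 2.84 for FOXP2, -0.60 to 1.28 for GAD1, -0.25 to 1.04 for GRIA2, -1.83 to 3.09 for GRM8, -1.49 to 0.077 for INSM1 and -0.56 to 0.49 for MAPT. The ranges were -3.48 to 2.24 for NEUROD4, -1.07 to 1.22 for NFIA, -0.47 to 0.43 for P2RY12, -0.51 to 0.33 for PAX6, -1.75 to 4.22 for RORB, -0.63 to 0.83 for SCN2A, -0.48 to 1.29 for SLC2A3, -0.0916 to 1.11 for SOX2, -0.11 to 1.12 for TNC and -0.0025 to 0.70 for TUBB3.

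The main tests rest on 2 libraries in a group and 2 residual degrees of freedom. Whether depth or the spread between replicates limits the calls was not tested. The lack of a call does not show that a gene did not differ, and day and drug cannot be told apart.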

Other observations

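Some genes that set D30 TMG and D70 control apart were higher at earlier stages, in libraries outside the comparisons above. Values here are CPM scaled over all 16 libraries, without a test. PAX3 was at 217 and 299.0 in D12 control and 358 and 375 in D12 TMG, above its D30 TMG levels of 173 and 160.1, and at 153 and 11.5 in D70 TMG. BARHL1 was at 144 and 67.9 in D12 control, against 14.0 and 19.3 in D30 TMG. POU5F1 was at 813 and 872 in undifferentiated control cells and at 0.540 and 0.764 in D12 control, below the 9.01 and 5.51 of D30 TMG. SLC2A1, high in D70 control, was also at 637 and 227 in undifferentiated control cells and at 210 and 394 in D12 control, while CA9 was at most 0.463 in every library of D0 and D12 and at 5.10 and 3.79 in D70 TMG.

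NEUROD6 was at 20.1 and 0 in the D70 TMG libraries, and TBR1 at 32.4 and 0.0924.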
